A study of Homo sapiens with 32 samples.

Results

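The difference between 2 human lymphoma lines in their transcript response to 1 h of CSK inhibition was measured gene by gene. For each gene the response of a line was the mean log2 value with CSKi minus the mean with DMSO, and the line difference was the TMD8 response minus the DOHH2 response. A positive line difference therefore means that the response lay higher in TMD8, which includes genes that fell in DOHH2 and were near their vehicle level in TMD8. Genes were kept when the mean log2 value at 1 h was at least 5 in both lines, and 10721 of 25066 features passed this level rule (42.8%). Of the others, 1339 passed in TMD8 alone, 861 passed in DOHH2 alone and 12145 passed in neither line. Just inside the rule, LOC100144603 had means of 5 in TMD8 and 6.70 in DOHH2, and just outside it LOC100288540 had means of 4.9995 in TMD8 and 8.05 in DOHH2.

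CSKi blocks CSK, the C-terminal Src kinase, and the 4 groups at 1 h were TMD8 with 500 nM CSKi, TMD8 with DMSO, DOHH2 with 500 nM CSKi and DOHH2 with DMSO. TMD8 and DOHH2 are cell lines of diffuse large B-cell lymphoma (DLBCL), of the activated B cell type and the germinal centre B cell type. Per the labels, every group consisted of Cas9-engineered cells cultured in advanced RPMI containing 5% FBS, so the controls carried the engineering too. Each group had 2 libraries, called bio replicates in the titles. Nothing in the labels says that these were separate cultures, so p-values measure the spread between these libraries, which may be technical. The spread was taken from 24 libraries at 1, 3 and 6 h, in 12 groups of 2, and the libraries at 24 h were left out except where named.

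CSK keeps Src family kinases inactive by phosphorylating a tyrosine near their C terminus. In B cells the main Src family kinase is LYN, which acts on activating motifs of the B cell receptor and also on inhibitory receptors that recruit phosphatases such as SHP-1. Signals from the B cell receptor switch on immediate early genes within the first hour, transcription factors and mRNA decay factors with short-lived transcripts, and their levels are read early after a change in kinase activity.

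Libraries at 1 h held 12273442 to 22629229 mapped reads, and a gene at the level rule had 14.2 to 26.4 reads per library, for which counting alone gives a coefficient of variation of 19.5 to 26.5%. Duplicates at 1 h correlated across the tested genes with r of 0.996 to 0.997. The 6 B cell markers were at or above the level rule in all 4 groups. The 9 markers of the activated B cell type summed to 3720 to 3790 RPM (reads scaled to equal library size) in TMD8 libraries and 281 to 321 in DOHH2 libraries. The 9 markers of the germinal centre type summed to 913 to 956 in TMD8 and 2030 to 2150 in DOHH2, so each line had the higher sum for its own type. The germinal centre marker LMO2 went the other way, with 1122 and 1165 reads with CSKi in TMD8 against 535 and 286 in DOHH2. LRMP gave most of the germinal centre reads in TMD8, 10272 and 10350 with CSKi. The 8 T and NK cell markers summed to 29.3 to 33.1 RPM in TMD8 and 4.32 to 5.1 in DOHH2, the 7 myeloid markers to 4.38 to 5.8 in TMD8 and 7.24 to 8.93 in DOHH2, and the 6 fibroblast and epithelial markers to 20.6 to 26.6 in TMD8 and 7.82 to 9.55 in DOHH2, and their part in any result was not tested. Of the T and NK cell markers 5 were at 0 in each TMD8 group and 3 in each DOHH2 group. Most T and NK cell marker reads in TMD8 were of CD5, 380 and 414 with CSKi and 479 and 480 with DMSO. The drug target is inhibited as a protein and its transcript does not check the labels. CSK had a line difference of 0.041 ± 0.050 (adjusted p = 0.909) and LYN one of 0.037 ± 0.053 (adjusted p = 0.926).

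The response differed between the lines for 55 of 10721 genes (0.513%), 40 with a higher response in TMD8 (0.373%) and 15 with a lower one (0.14%). A gene was called when its adjusted p in limma, Benjamini-Hochberg over all 10721 genes, was under 0.05, and each ± below is a standard error on the log2 scale, with 2 libraries per group. Of the 55, 29 differed at least 1.5-fold (0.27%). Within TMD8 itself 12 genes were called (0.112%), 3 that rose (0.028%) and 9 that fell (0.0839%), and within DOHH2 257 genes (2.4%), 99 that rose (0.923%) and 158 that fell (1.47%). For the 40 genes with the higher response in TMD8, the median response was 0.01 in TMD8 (range -0.98 to 0.88) and -0.57 in DOHH2 (range -4.88 to -0.05). For the 15 genes with the lower response in TMD8 it was 0.01 in TMD8 (range -1.20 to 0.33) and 0.57 in DOHH2 (range 0.18 to 1.34). These medians, and the responses of each line given below for the 55 genes, share their libraries with the line difference that chose the genes. They are given as a description.

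The calls rested on single libraries to an unequal degree. In all, 30 of 55 calls were kept without each of the 8 libraries in turn, and 22 were lost without DOHH2 DMSO replicate 2, which left 33 of the 55. Adding the 24 h libraries to the spread, which the definition leaves out, ended 39 of the 55 calls and gave a total of 16 genes called. A variance model without the trend ended 18 of the 55 calls, among them TXNIP, CD83, BCL2A1, CXCR4, S1PR1, GADD45A, PLK3, PRAG1 and NFKB2, and voom on recovered reads ended 10, among them BCL2A1, KLF10, CCDC74A and NFKB2. The 8 libraries at 1 h alone ended 7, among them KLF10 and PLK3. Quantile scaling ended 4, CXCR4, GADD45A, TRAF4 and NFKB2, and the 12000 features with the highest mean ended these 4 and 2 others. The count for TMD8 was 35 without TMD8 CSKi replicate 2 and 7 without either DOHH2 DMSO library, and that for DOHH2 was 103 without DOHH2 DMSO replicate 2, 156 without DOHH2 DMSO replicate 1 and 165 without DOHH2 CSKi replicate 1. The line difference had 35 calls in all without DOHH2 DMSO replicate 2. Because RNA came from whole cultures, fewer responding cells and less RNA per cell cannot be told apart.

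**Figure D1:**
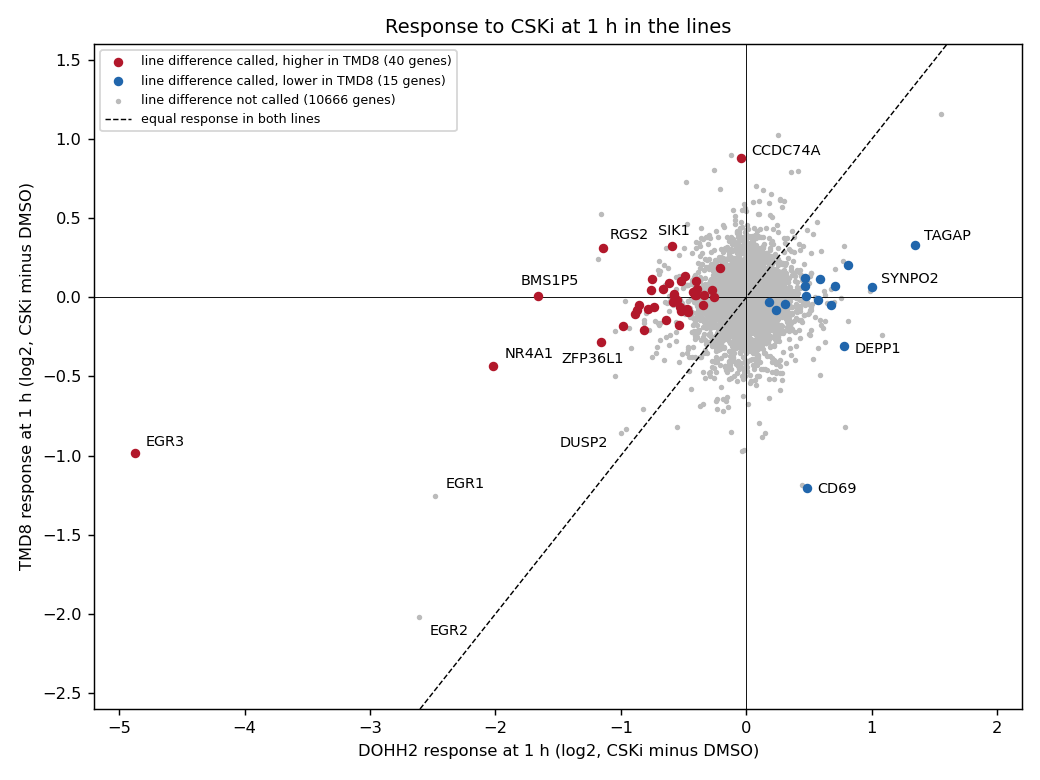
Response to CSKi after 1 h (log2, CSKi minus DMSO) in TMD8 (vertical axis) and in DOHH2 (horizontal axis), 1 point for each of 10721 genes, with the 55 called genes coloured by the sign of the line difference. The dashed line marks an equal response, and most of the 40 genes with the higher response in TMD8 lie near 0 in TMD8 and below 0 in DOHH2.

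EGR3, a zinc finger transcription factor of the immediate early class, had the largest line difference among the called genes, 3.89 ± 0.43 (adjusted p = 8.19e-07). In TMD8 it had log2 values of 6.92 and 7.16 with CSKi against 8.04 and 7.999 with DMSO. In DOHH2 the values were 3.35 and 4.63 with CSKi against 8.56 and 9.16 with DMSO. Both DOHH2 libraries with CSKi were far below every other library, and CSKi and DMSO libraries did not overlap in either line. With 2 libraries per group, a lack of overlap alone does not show a response, here or below. The share of all genes without overlap was not counted. The DOHH2 value with CSKi stood on 8 and 11 reads, against 312 and 304 reads with DMSO, and the TMD8 values on 61 and 71 reads against 151 and 146 reads. In DOHH2 EGR3 passed the level rule only through its DMSO libraries, with a mean of 8.86 against 3.99 with CSKi. The DOHH2 fall was 29.3-fold, while the TMD8 response of -0.98 did not pass the test (adjusted p = 0.376).

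NR4A1, an orphan nuclear receptor induced by antigen receptor signals, had a line difference of 1.58 ± 0.26 (adjusted p = 0.000476). It had 7.24 and 7.502 with CSKi against 7.76 and 7.84 with DMSO in TMD8, and in DOHH2 8.76 and 8.76 with CSKi against 10.48 and 11.07 with DMSO. The level of NR4A1 was thus lower in TMD8 than in DOHH2 under vehicle, and the CSKi libraries lay below the DMSO libraries without overlap in both lines, by -0.43 in TMD8 (adjusted p = 0.639) and -2.02 in DOHH2 (adjusted p = 4.33e-09). IER5, an immediate early regulator of the heat shock factor HSF1, differed by 0.43 ± 0.077 (adjusted p = 0.00154), with a response of -0.089 in TMD8 and -0.52 in DOHH2. KLF10, a Krüppel-like factor of the TGF-beta early response, differed by 0.87 ± 0.17 (adjusted p = 0.00508), with a response of 0.12 in TMD8 and -0.75 in DOHH2. The KLF10 call was lost without DOHH2 CSKi replicate 1 or DOHH2 DMSO replicate 2 (highest adjusted p = 0.0778), and also with the 8 libraries at 1 h alone and with voom on recovered reads. These were the 4 called members among 18 tested genes of the immediate early transcription factor list (background 0.513%). None of the 4 had a called response in TMD8 (limma) while all 4 fell in DOHH2. The line difference from the same libraries chose these 4 genes, so their separate responses are given as a description. Of the 4 responses in TMD8, those of EGR3, NR4A1 and IER5 had unadjusted p of 0.00283, 0.0247 and 0.113, and that of KLF10 0.338.

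**Figure D2:**
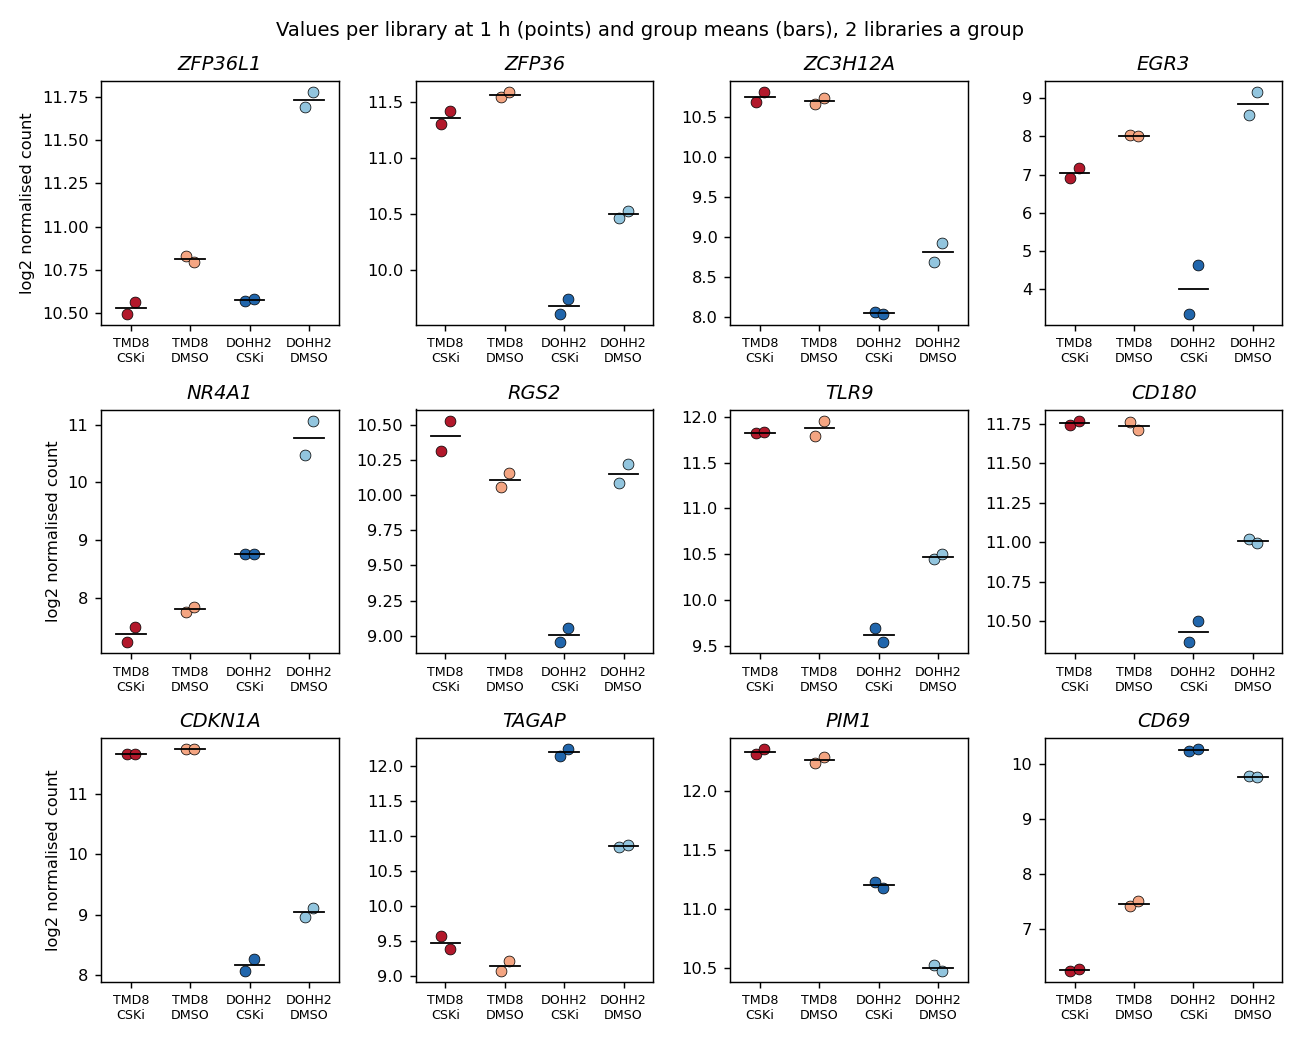
Log2 normalised counts of called genes at 1 h in each library, with CSKi beside DMSO in TMD8 and in DOHH2, 2 points per group and a line at the group mean. The DOHH2 points for EGR3 separate widely between CSKi and DMSO, and those for CD69 and TAGAP lie higher with CSKi than with DMSO.

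Other immediate early genes fell in both lines with no called difference between them. EGR2, a zinc finger factor closely related to EGR3, had 8.10 and 8.40 with CSKi against 10.32 and 10.23 with DMSO in TMD8, and in DOHH2 6.10 and 6.53 with CSKi against 8.76 and 9.09 with DMSO. EGR2 fell without overlap in both lines, with responses of -2.02 in TMD8 (adjusted p = 2.16e-07) and -2.61 in DOHH2 (adjusted p = 4.36e-11). The line difference of EGR2 was 0.59 ± 0.28 (adjusted p = 0.614), with a 95% interval of 0.023 to 1.15, which reaches from a nearly equal fall to one more than 2-fold deeper in DOHH2. EGR1, the founding member of the family, had 7.74 and 8.20 with CSKi against 9.10 and 9.35 with DMSO in TMD8, and in DOHH2 5.67 and 6.12 with CSKi against 8.12 and 8.64 with DMSO. It fell in both, with responses of -1.25 in TMD8 and -2.48 in DOHH2, and the line difference of 1.23 ± 0.32 missed the threshold (adjusted p = 0.0883, 95% interval 0.57 to 1.89). It passed with the 8 libraries at 1 h alone and with voom on recovered reads, where the adjusted p was lowest (0.0158). The TMD8 fall of EGR1 lost its call without TMD8 CSKi replicate 1, TMD8 DMSO replicate 1 or TMD8 DMSO replicate 2 (highest adjusted p = 0.312).

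DUSP2, a phosphatase that removes phosphate from ERK in the nucleus, fell in both lines. It had 9.46 and 9.45 with CSKi against 10.33 and 10.28 with DMSO in TMD8, and in DOHH2 7.91 and 8.04 with CSKi against 8.89 and 9.06 with DMSO. The responses were -0.86 in TMD8 and -0.998 in DOHH2, and the line difference was 0.14 ± 0.16 (adjusted p = 0.895, 95% interval -0.18 to 0.47). JUNB, a subunit of the AP-1 factor, had responses of -0.35 in TMD8 (adjusted p = 0.0416) and -0.72 in DOHH2 (adjusted p = 2.33e-08), with a line difference of 0.37 ± 0.10 (adjusted p = 0.129). PMAIP1, the proapoptotic BCL2 family member NOXA, had responses of -0.33 in TMD8 and -0.47 in DOHH2, with a line difference of 0.14 ± 0.080 (adjusted p = 0.715). JUNB and PMAIP1 were chosen after their values were seen. The line difference of JUNB passed without TMD8 CSKi replicate 2 (adjusted p = 0.0323). Its TMD8 fall lost the call without TMD8 CSKi replicate 2, TMD8 DMSO replicate 1, TMD8 DMSO replicate 2, DOHH2 DMSO replicate 1 or DOHH2 DMSO replicate 2 (highest adjusted p = 0.27), and that of PMAIP1 without TMD8 DMSO replicate 2 (adjusted p = 0.216). In all, 8 genes were called in both lines, 66.7% of the 12 in TMD8 and 3.11% of the 257 in DOHH2. These genes were EGR1, EGR2, DUSP2, JUNB, PMAIP1 and ZFP36L1, which fell in both, TAGAP, which rose in both, and CD69, which moved opposite ways, and the line difference was itself called for ZFP36L1, TAGAP and CD69, 3 of the 8. The TMD8 calls of JUNB, TAGAP and PMAIP1 were lost with voom on recovered reads, those of JUNB and TAGAP also with the 8 libraries at 1 h alone, without the trend in the variance model or with the 12000 features with the highest mean, and those of EGR1, JUNB, PMAIP1, TAGAP and CD69 with all 32 libraries. EGR2 and DUSP2 kept their call in both lines under all 20 alternatives run.

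ZFP36L1 and ZFP36 encode RNA-binding proteins that bind AU-rich elements in short-lived mRNAs and promote their decay. ZFP36L1 had 10.50 and 10.57 with CSKi against 10.83 and 10.80 with DMSO in TMD8, and in DOHH2 10.57 and 10.58 with CSKi against 11.69 and 11.78 with DMSO. It fell in both lines without overlap, to a similar level with CSKi in each, and DOHH2 had the higher vehicle level. The line difference was 0.88 ± 0.065 (adjusted p = 3.48e-10, the smallest of all genes), with a fall of 1.22-fold in TMD8 and 2.23-fold in DOHH2. The TMD8 fall lost its call without TMD8 CSKi replicate 1 or TMD8 DMSO replicate 1 (highest adjusted p = 0.0775).

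ZFP36 had 11.30 and 11.42 with CSKi against 11.55 and 11.59 with DMSO in TMD8, and in DOHH2 9.61 and 9.75 with CSKi against 10.47 and 10.53 with DMSO. Its line difference was 0.61 ± 0.073 (adjusted p = 2.14e-06), and only the DOHH2 fall of 0.82 was called, since the TMD8 response of -0.21 had an adjusted p of 0.201. ZC3H12A encodes regnase-1, an endoribonuclease that cleaves inflammatory mRNAs. It differed by 0.80 ± 0.12 (adjusted p = 8.67e-05), with a response of 0.047 in TMD8 and -0.76 in DOHH2. These 3 were the called members of the 12 tested genes for AU-rich mRNA decay (background 0.513%), whose median line difference was -0.01.

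Genes that encode feedback parts of the NF-kB pathway moved in both directions. NFKBIE, an inhibitor that holds NF-kB dimers in the cytoplasm, differed by 0.41 ± 0.071 (adjusted p = 0.00127), with a response of -0.072 in TMD8 and -0.48 in DOHH2. NFKBIZ, a nuclear inhibitor-like cofactor of NF-kB, differed the other way by -0.40 ± 0.063 (adjusted p = 0.000296), with a response of 0.070 in TMD8 and 0.47 in DOHH2. TIFA, an adaptor that brings TRAF proteins to NF-kB signalling, also lay lower in TMD8, by -0.72 ± 0.10 (adjusted p = 7.17e-05), and its DOHH2 libraries read 11.30 and 11.31 with CSKi against 10.67 and 10.60 with DMSO. Of these 3 genes only NFKBIE fell in DOHH2, and NFKBIZ and TIFA rose there.

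CD83, a surface marker of activated B cells, had a line difference of 0.50 ± 0.096 (adjusted p = 0.00433), and that of the antiapoptotic BCL2A1 was 0.67 ± 0.13 (adjusted p = 0.00495). NFKB2, the precursor of the p52 subunit, differed by 0.42 ± 0.097 (adjusted p = 0.0346). These 3 depended on single libraries. The call of CD83 was lost without TMD8 DMSO replicate 2, DOHH2 CSKi replicate 1 or DOHH2 DMSO replicate 2 (highest adjusted p = 0.1). That of BCL2A1 was lost without TMD8 CSKi replicate 1, TMD8 DMSO replicate 2 or DOHH2 DMSO replicate 2 (highest adjusted p = 0.117). The NFKB2 call was lost without TMD8 CSKi replicate 2, TMD8 DMSO replicate 1, TMD8 DMSO replicate 2, DOHH2 CSKi replicate 2 or DOHH2 DMSO replicate 2 (highest adjusted p = 0.359). Of 22 tested NF-kB targets and feedback genes, 4 were called higher in TMD8 (background 0.373%) and 1 lower (background 0.14%), with a median line difference of 0.06 and 13 positive values.

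RGS2 speeds the turn-off of G proteins below their receptors, and had the second smallest adjusted p. It had 10.31 and 10.53 with CSKi against 10.06 and 10.16 with DMSO in TMD8, and in DOHH2 8.95 and 9.06 with CSKi against 10.08 and 10.22 with DMSO. Both CSKi libraries were above both DMSO libraries in TMD8 and below them in DOHH2. The line difference was 1.46 ± 0.11 (adjusted p = 4.61e-10), 2.75-fold, of which the DOHH2 fall was called and the TMD8 response of 0.31 was not (adjusted p = 0.205). ADORA2A, a receptor for adenosine, differed by 0.58 ± 0.078 (adjusted p = 2.51e-05), with a response of 0.0080 in TMD8 and -0.57 in DOHH2.

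TLR9, the endosomal receptor for CpG DNA, had 11.82 and 11.84 with CSKi against 11.80 and 11.96 with DMSO in TMD8, and in DOHH2 9.70 and 9.54 with CSKi against 10.44 and 10.51 with DMSO. The TMD8 libraries overlapped and the DOHH2 libraries separated, with a line difference of 0.81 ± 0.087 (adjusted p = 6.15e-07). CD180, a Toll-like receptor homologue on B cells, had 11.74 and 11.77 with CSKi against 11.76 and 11.71 with DMSO in TMD8, and in DOHH2 10.37 and 10.50 with CSKi against 11.02 and 11.00 with DMSO. It fell in DOHH2 by 0.57, against a response of 0.023 in TMD8, and the line difference was 0.60 ± 0.070 (adjusted p = 1.7e-06). TASL, listed as CXorf21, is the adaptor that couples endosomal Toll-like receptors to IRF5, and differed by 0.71 ± 0.12 (adjusted p = 0.000476), with a response of 0.092 in TMD8 and -0.62 in DOHH2. TLR9, CD180 and TASL each fell in DOHH2.

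PTPN6 encodes the phosphatase SHP-1, which acts on substrates of Src family kinases in B cells. It had 14.17 and 14.18 with CSKi against 14.18 and 14.14 with DMSO in TMD8, and in DOHH2 11.69 and 11.68 with CSKi against 12.08 and 12.10 with DMSO. Its line difference of 0.43 ± 0.061 (adjusted p = 7.5e-05) made it the only called member of 15 tested Src family kinases and regulators (background 0.513%), whose median line difference was 0.04. PRAG1, a pseudokinase listed as PRAGMIN, binds CSK, and differed by 0.37 ± 0.083 (adjusted p = 0.0231), with a response of -0.094 in TMD8 and -0.46 in DOHH2. The PRAG1 call was lost without TMD8 CSKi replicate 1, TMD8 DMSO replicate 2, DOHH2 CSKi replicate 1, DOHH2 CSKi replicate 2, DOHH2 DMSO replicate 1 or DOHH2 DMSO replicate 2 (highest adjusted p = 0.19).

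Receptors that steer B cells through lymphoid tissue moved in opposite directions. CXCR5, the CXCL13 receptor that leads B cells into follicles, had 11.20 and 11.05 with CSKi against 11.15 and 11.13 with DMSO in TMD8, and in DOHH2 10.13 and 10.26 with CSKi against 10.76 and 10.74 with DMSO, and the groups separated in DOHH2 alone. Its line difference was 0.54 ± 0.077 (adjusted p = 7.17e-05). CXCR4, the CXCL12 receptor, differed by -0.34 ± 0.072 (adjusted p = 0.0122), with a response of 0.12 in TMD8 and 0.46 in DOHH2. S1PR1, the receptor for egress along sphingosine 1-phosphate, differed by -0.59 ± 0.13 (adjusted p = 0.0126), with a response of -0.020 in TMD8 and 0.57 in DOHH2. So CXCR5 fell in DOHH2 while CXCR4 and S1PR1 rose there. The CXCR4 call was lost without TMD8 CSKi replicate 1, TMD8 DMSO replicate 2, DOHH2 CSKi replicate 2, DOHH2 DMSO replicate 1 or DOHH2 DMSO replicate 2 (highest adjusted p = 0.206), and that of S1PR1 without TMD8 CSKi replicate 2, TMD8 DMSO replicate 2, DOHH2 CSKi replicate 2 or DOHH2 DMSO replicate 1 (highest adjusted p = 0.156).

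CD69, an early surface antigen of activated lymphocytes that retains cells by lowering surface S1PR1, was the one gene called in opposite directions in the lines. In TMD8 it had 6.24 and 6.26 with CSKi against 7.41 and 7.495 with DMSO. In DOHH2 it had 10.23 and 10.27 with CSKi against 9.77 and 9.76 with DMSO. The libraries separated in both lines, with CSKi low in TMD8 and high in DOHH2. CD69 fell by 1.20 in TMD8 (adjusted p = 2.54e-06) and rose by 0.48 in DOHH2 (adjusted p = 0.0483), a line difference of -1.68 ± 0.19 (adjusted p = 9.16e-07). The line difference kept its call without each library in turn, whereas the DOHH2 rise, close to the threshold, lost its call without TMD8 DMSO replicate 1, TMD8 DMSO replicate 2, DOHH2 CSKi replicate 1, DOHH2 CSKi replicate 2, DOHH2 DMSO replicate 1 or DOHH2 DMSO replicate 2 (highest adjusted p = 0.254). That rise was also not called with a level rule of 4, the 12000 features with the highest mean, quantile scaling or all 32 libraries.

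TAGAP, a GTPase-activating protein of activated lymphocytes, had 9.57 and 9.38 with CSKi against 9.07 and 9.22 with DMSO in TMD8, and in DOHH2 12.15 and 12.25 with CSKi against 10.84 and 10.88 with DMSO. The groups separated in both lines, and DOHH2 had the higher level in every library. TAGAP rose 2.53-fold in DOHH2 and the line difference was -1.01 ± 0.096 (adjusted p = 4.83e-08). The TMD8 rise of 0.33 was near the threshold (adjusted p = 0.0416) and lost its call without TMD8 CSKi replicate 1, TMD8 DMSO replicate 1, DOHH2 CSKi replicate 1, DOHH2 CSKi replicate 2, DOHH2 DMSO replicate 1 or DOHH2 DMSO replicate 2 (highest adjusted p = 0.507). PIM1, a survival kinase downstream of STAT and NF-kB signals, had 12.32 and 12.36 with CSKi against 12.24 and 12.29 with DMSO in TMD8, and in DOHH2 11.23 and 11.18 with CSKi against 10.52 and 10.47 with DMSO. It rose in DOHH2, and the line difference was -0.64 ± 0.070 (adjusted p = 8.4e-07).

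Several genes with the lower response in TMD8 are known targets of FOXO factors, which are restrained by PI3K and AKT signalling. DEPP1, listed as C10orf10, had 7.62 and 7.60 with CSKi against 7.94 and 7.90 with DMSO in TMD8, and in DOHH2 9.17 and 9.06 with CSKi against 8.29 and 8.38 with DMSO. The line difference was -1.09 ± 0.18 (adjusted p = 0.000409), with a rise called in DOHH2 and a response of -0.31 in TMD8 that was not called (adjusted p = 0.62). TXNIP, which binds thioredoxin and limits glucose uptake, differed by -0.47 ± 0.079 (adjusted p = 0.000604), with a response of 0.12 in TMD8 and 0.59 in DOHH2. GADD45A, a growth arrest and DNA damage gene, differed by -0.61 ± 0.13 (adjusted p = 0.0221), with a response of 0.20 in TMD8 and 0.81 in DOHH2. All 3 rose in DOHH2. The GADD45A call was lost without TMD8 CSKi replicate 1, TMD8 DMSO replicate 1, TMD8 DMSO replicate 2, DOHH2 CSKi replicate 1, DOHH2 CSKi replicate 2 or DOHH2 DMSO replicate 2 (highest adjusted p = 0.232). Of the 15 tested members of the FOXO target list, S1PR1, TXNIP and GADD45A were called (background 0.14% for a lower response) and no member the other way, and the median line difference was -0.23. SYNPO2, an actin-binding protein, belonged to no list and differed by -0.94 ± 0.17 (adjusted p = 0.00222), with a response of 0.065 in TMD8 and 1.00 in DOHH2.

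Among cell cycle regulators, CDKN1A, which encodes the p21 inhibitor of cyclin-dependent kinases, had 11.66 and 11.66 with CSKi against 11.74 and 11.74 with DMSO in TMD8, and in DOHH2 8.08 and 8.27 with CSKi against 8.97 and 9.12 with DMSO. In DOHH2 CDKN1A had a called response of -0.87. In TMD8 its mean was 11.66 with CSKi against 11.74 with DMSO, and that response was not called. The line difference was 0.79 ± 0.091 (adjusted p = 1.55e-06). PLK3, a stress-responsive polo-like kinase, differed by 0.55 ± 0.12 (adjusted p = 0.0124), a call lost without TMD8 CSKi replicate 2, TMD8 DMSO replicate 1, DOHH2 CSKi replicate 1 or DOHH2 DMSO replicate 2 (highest adjusted p = 0.188). CDKN1A and PLK3 were the 2 called among 11 tested p53 targets (background 0.513%), whose median line difference was 0.03. ID3, which blocks E-protein transcription factors, differed by 0.78 ± 0.14 (adjusted p = 0.00127), with a response of -0.11 in TMD8 and -0.89 in DOHH2. SIK1, a salt-inducible kinase that restrains CREB coactivators, differed by 0.92 ± 0.13 (adjusted p = 4.03e-05). SIK1 had responses of 0.32 in TMD8 (adjusted p = 0.278) and -0.59 in DOHH2 (adjusted p = 5.24e-05). SERTAD3, a transcriptional cofactor, differed by 0.81 ± 0.14 (adjusted p = 0.000853), with a response of -0.18 in TMD8 and -0.99 in DOHH2.

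CCDC74A was the one called gene whose TMD8 response carried nearly the whole difference. In TMD8 it passed the level rule only through its CSKi libraries, with a mean of 5.64 against 4.76 with DMSO. It had 5.51 and 5.77 with CSKi against 4.81 and 4.72 with DMSO in TMD8, and in DOHH2 10.45 and 10.38 with CSKi against 10.40 and 10.52 with DMSO. It rose in TMD8 by 0.88 and was level in DOHH2, with a line difference of 0.92 ± 0.18 (adjusted p = 0.0061). With voom on recovered reads both calls were lost, with 0.61 in TMD8 (adjusted p = 0.917) and a line difference of 0.66 (adjusted p = 0.365). The TMD8 values stood on 23 and 27 reads with CSKi against 16 and 15 with DMSO, and reads may be split with the near-identical copy CCDC74B, so the value is uncertain. The call was lost without TMD8 CSKi replicate 2, DOHH2 CSKi replicate 2 or DOHH2 DMSO replicate 2 (highest adjusted p = 0.0852). BMS1P5 is one of several pseudogene copies of BMS1. In DOHH2 it passed the level rule only through its DMSO libraries, with a mean of 6.05 against 4.39 with CSKi. It differed by 1.67 ± 0.35 (adjusted p = 0.0111) on 34 and 44 reads with CSKi against 41 and 47 with DMSO in TMD8. In DOHH2 it had 17 and 9 reads against 49 and 39, and its value is uncertain for the same reason as that of CCDC74A. That call was lost without TMD8 CSKi replicate 2, TMD8 DMSO replicate 1, DOHH2 CSKi replicate 2 or DOHH2 DMSO replicate 2 (highest adjusted p = 0.117).

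The remaining called genes had line differences within ±0.72. MPEG1, which encodes the pore-forming perforin-2, differed by 0.44 ± 0.055 (adjusted p = 5.43e-06), ZNF296 by 0.71 ± 0.11 (adjusted p = 0.000177) and RUNDC1 by 0.62 ± 0.10 (adjusted p = 0.000488). PPP1R18, an actin-linked phosphatase subunit listed as KIAA1949, differed by 0.32 ± 0.058 (adjusted p = 0.00195). All 4 fell in DOHH2 and kept their calls without each library in turn. The rest of the called genes with a higher response in TMD8 were KBTBD8, ZNF574, BAG5, PPP1R15A, PLEKHO2, MIDN, STAMBPL1, ATOSB (listed as KIAA1539), TRAF4 and HYAL2, and those with a lower one MAB21L1, SLC41A1, SPRING1 (listed as C12orf49) and LOC100287520. Each of these 14 lost its call without at least 1 library.

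Promoters were read for the called genes that a RefSeq table of GRCh38.p14 holds, 30 of the 40 with a higher and 12 of the 15 with a lower response in TMD8, each from 250 bases before the start site to 50 after it. Shown are 2 receptors with the AP-1 letters TGANTCA and 2 genes with the EGR letters GCGGGGGCG or GCGTGGGCG. These letters were picked because EGR and AP-1 subunit genes fell in these libraries. Whether the letters have any part in the responses was not tested. Letters in capitals mark the match, and each promoter is written 5′ to 3′ on the strand of its gene. TLR9 lies on the minus strand at chr3:52225596-52225895, CD180 on the minus strand at chr5:67196750-67197049, ZC3H12A on the plus strand at chr1:37474330-37474629 and SIK1 on the minus strand at chr21:43427082-43427381. The match starts at -87 in TLR9, -124 in CD180, -168 in ZC3H12A and -99 in SIK1, counted from the start site.
TLR9: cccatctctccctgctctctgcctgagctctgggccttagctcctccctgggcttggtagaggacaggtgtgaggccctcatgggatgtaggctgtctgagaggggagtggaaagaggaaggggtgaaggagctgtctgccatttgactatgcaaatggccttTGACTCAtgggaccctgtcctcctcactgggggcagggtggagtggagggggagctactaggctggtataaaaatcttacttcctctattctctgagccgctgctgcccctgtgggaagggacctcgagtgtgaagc
CD180: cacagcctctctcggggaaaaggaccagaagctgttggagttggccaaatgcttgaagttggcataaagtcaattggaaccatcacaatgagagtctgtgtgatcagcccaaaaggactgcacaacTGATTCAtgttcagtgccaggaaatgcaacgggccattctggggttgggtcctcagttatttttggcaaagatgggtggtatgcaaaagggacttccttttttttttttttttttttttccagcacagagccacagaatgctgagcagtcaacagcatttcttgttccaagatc
ZC3H12A: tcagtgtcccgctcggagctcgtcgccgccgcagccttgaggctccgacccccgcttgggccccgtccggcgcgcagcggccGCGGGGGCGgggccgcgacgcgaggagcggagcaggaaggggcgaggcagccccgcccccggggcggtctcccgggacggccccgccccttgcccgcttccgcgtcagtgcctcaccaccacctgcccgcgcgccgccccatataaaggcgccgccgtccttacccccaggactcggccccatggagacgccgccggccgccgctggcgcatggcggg
SIK1: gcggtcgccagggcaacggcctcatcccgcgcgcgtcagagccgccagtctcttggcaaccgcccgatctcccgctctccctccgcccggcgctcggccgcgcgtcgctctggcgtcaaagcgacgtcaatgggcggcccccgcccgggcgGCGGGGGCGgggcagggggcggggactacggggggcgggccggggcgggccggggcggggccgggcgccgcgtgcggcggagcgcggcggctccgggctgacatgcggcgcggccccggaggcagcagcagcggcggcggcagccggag

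On both strands, the EGR letters were in 4 of the 30 promoters of genes with a higher response in TMD8 (13.3%), against 9.05% of 8464 tested genes with a promoter and 5.7% of all 27305 promoters in the table. The AP-1 letters were in 2 of the 30 (6.67%), against 3.99% of tested genes and 7.76% of all promoters. The cyclic AMP response element TGACGTCA was in 1 of the 30 (3.33%), that of PPP1R15A, against 3.47% of tested genes and 1.98% of all promoters. A kB site was in 2 of the 30 (6.67%) and 1 of the 12 (8.33%), against 6.44% of tested genes and 5.72% of all promoters. The CArG box was in 1.03% of tested genes and 1.29% of all promoters and in none of these 42 windows. No match says only that those letters are not in the window, and the letters of the 12 promoters with a lower response held none of the EGR, AP-1 or cyclic AMP patterns. Each of the 4 promoters shown held a single marked site, which in TLR9 and CD180 matched on both strands.

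Across 20 gene lists, 275 of the tested genes were listed and 22 of them were called (8%), against 0.513% of all tested genes. The lists were chosen with earlier results known, and the share is given as a description. The immediate early transcription factors had a median line difference of 0.41, with 15 of 18 positive, and 0 was the median of all 10721 genes. Their median response was -0.12 in TMD8, where 3 fell (background 0.0839%), and -0.58 in DOHH2, where 11 fell (background 1.47%). The FOXO targets had a median response of -0.02 in TMD8 and 0.15 in DOHH2, where 4 rose (background 0.923%) and 1 fell (background 1.47%). The B cell migration list had 2 called higher (background 0.373%) and 2 lower (background 0.14%) of 15, with a median of -0.02. The B cell activation list had CD69 alone of 14, called lower (background 0.14%). BCL2A1 was the called member of 13 tested BCL2 family genes, called higher (background 0.373%).

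In 11 lists with 147 tested members, limma called no line difference, while 22 of these members had an unadjusted p under 0.05 and voom on recovered reads also called 0. These lists held ERK feedback, B cell receptor pathway, cytokine and chemokine, heat shock, MYC and ribosome biogenesis, unfolded protein response, ATF4 and amino acid response, sterol synthesis, interferon response, MHC class II and actin and adhesion genes. The 22 B cell receptor pathway members had a median line difference of 0.01, and the 20 of MYC and ribosome biogenesis one of 0.02. Of the sterol synthesis list, 13 of the 14 genes had a positive value with a median of 0.05. DUSP5, a nuclear ERK phosphatase, had the largest value of the ERK feedback list, 1.42 ± 0.39 (adjusted p = 0.129). In DOHH2 it stood on 22 and 12 reads with CSKi against 46 and 37 with DMSO. The DOHH2 mean was 4.78 with CSKi and 5.96 with DMSO, so DUSP5 met the level rule there only through its DMSO libraries. The line difference of DUSP5 passed the test with a pseudocount of 16, with quantile scaling and with the 8 libraries at 1 h alone, where the adjusted p was lowest (2.76e-06). Of 16 cytokine and chemokine genes, 12 did not pass the level rule.

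**Figure D3:**
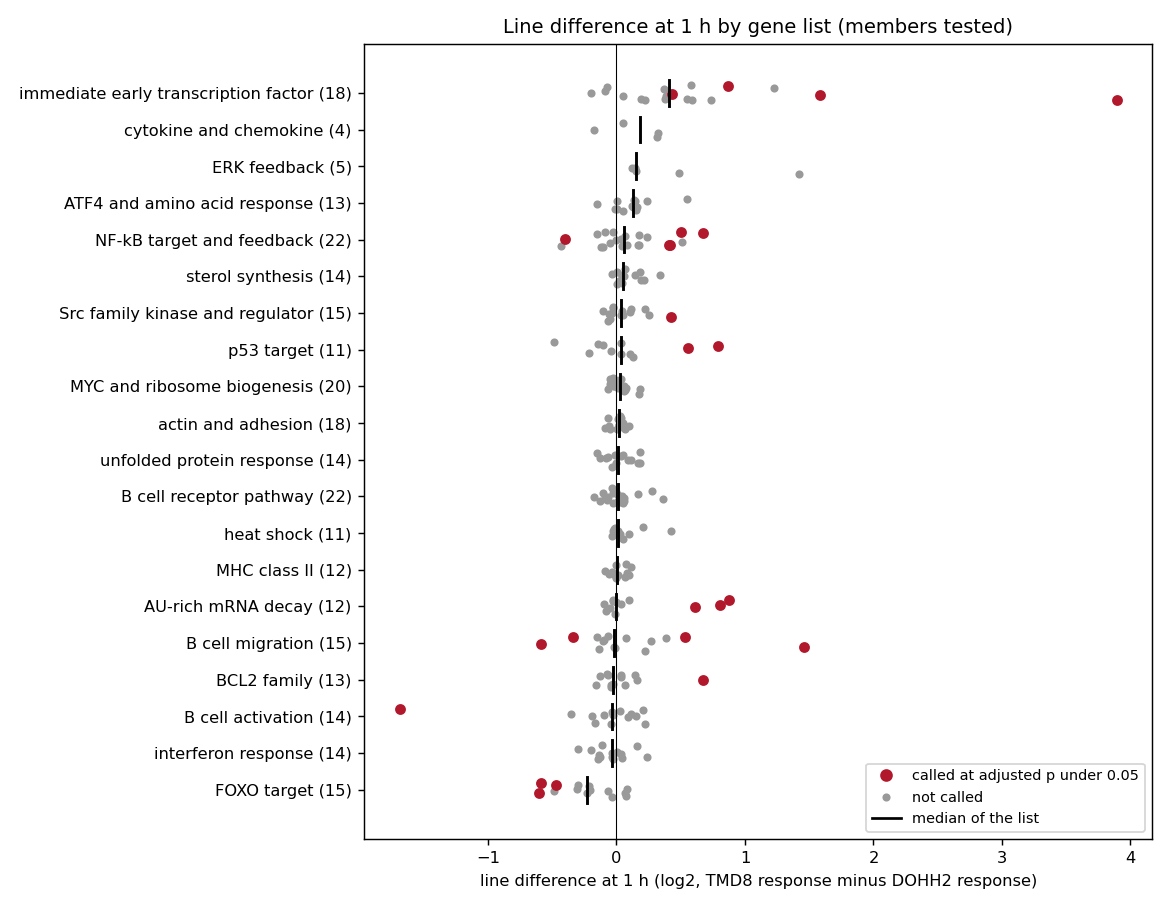
Line difference at 1 h (log2, TMD8 response minus DOHH2 response) of every tested member of the gene lists, 1 point per gene, with called genes marked and a bar at each list's median. The immediate early list sits right of 0 with a median of 0.41 and the FOXO target list left of 0 with a median of -0.23.

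The libraries at 3 and 6 h are separate from those at 1 h, though all 3 times share the estimate of spread. At 3 h 742 genes had a called line difference (6.92%), 352 higher in TMD8 (3.28%) and 390 lower (3.64%), and at 6 h 857 genes (7.99%), 378 higher (3.53%) and 479 lower (4.47%). Of the 40 genes with a higher response in TMD8 at 1 h, 13 were called lower at 3 h (32.5%), and TRAF4 alone was called higher. At 6 h 10 of the 40 were called higher (25%), among them TLR9, CDKN1A, ADORA2A, SIK1, NFKBIE, ID3 and IER5, and 6 were called lower (15%), among them RGS2, EGR3, CD180 and CD83. Of the 15 genes with a lower response in TMD8 at 1 h, 7 were also called lower at 3 h (46.7%), TAGAP, PIM1, CD69, DEPP1, SYNPO2, S1PR1 and SPRING1. At 6 h 7 of the 15 were called lower (46.7%), 5 of them among those at 3 h and the others TIFA and NFKBIZ, and MAB21L1 was called higher. Without 1 library the count at 3 h was as low as 440, without DOHH2 DMSO replicate 1, and 459 without TMD8 CSKi replicate 1.

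RGS2 had line differences of opposite sign at 1 h and later. At 3 h it had 8.78 and 8.70 with CSKi against 9.46 and 9.42 with DMSO in TMD8 and 9.88 and 9.70 with CSKi against 9.23 and 9.30 with DMSO in DOHH2. At that time it fell by 0.70 in TMD8 (adjusted p = 2.92e-07) and rose by 0.52 in DOHH2 (adjusted p = 1.57e-05), with a line difference of -1.22 ± 0.11 (adjusted p = 7.09e-09). At 6 h the line difference was -1.26 ± 0.11 (adjusted p = 9.1e-10). The change of the line difference between times was not tested for this or any other gene.

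EGR3 showed the same order of signs. It had 5.62 and 5.87 with CSKi against 7.10 and 7.32 with DMSO in TMD8 and 5.08 and 5.01 with CSKi against 5.07 and 5.22 with DMSO in DOHH2 at 3 h. CSKi and DMSO libraries of DOHH2 overlapped there, and the line difference was -1.36 ± 0.43 (adjusted p = 0.0485), a call lost without any 1 of the 8 libraries at 3 h (highest adjusted p = 0.164). At 6 h it was -2.03 ± 0.43 (adjusted p = 0.00149), and it ranged from -2.34 to -1.72 without each library in turn. The level rule was applied at 1 h only. At 6 h EGR3 in DOHH2 had 3.09 and 3.57 with CSKi against 2.98 and 2.37 with DMSO. These values lie under the level of 5 and rest on few reads, so the size of this difference is uncertain. For CD83 the TMD8 libraries at 3 h read 10.71 and 10.84 with CSKi against 12.10 and 12.07 with DMSO, and those of DOHH2 10.41 and 10.56 with CSKi against 10.37 and 10.57 with DMSO. The line difference of CD83 at 3 h was -1.32 ± 0.096 (adjusted p = 3.7e-11). CD180 at 3 h had a response of -1.07 in TMD8 and -0.013 in DOHH2, with a line difference of -1.06 ± 0.070 (adjusted p = 3.31e-12). EGR1, EGR2 and DUSP2, not called at 1 h, had line differences of -3.17, -4.53 and -1.90 at 3 h, with adjusted p of 3.52e-08, 1.76e-12 and 7.61e-10. EGR1 in DOHH2 was near the level of 5 at 3 h, with 5.94 and 5.70 with CSKi against 4.75 and 5.28 with DMSO.

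CD69 kept its sign. It had 4.25 and 4.43 with CSKi against 6.36 and 6.49 with DMSO in TMD8 and 9.55 and 9.52 with CSKi against 8.60 and 8.72 with DMSO in DOHH2 at 3 h, with CSKi low in TMD8 and high in DOHH2 as at 1 h. The line difference of CD69 was -2.96 ± 0.19 at 3 h (adjusted p = 1.89e-12) and -2.34 ± 0.19 at 6 h (adjusted p = 1.08e-10). PIM1 had a response of 0.31 in TMD8 and 0.84 in DOHH2 at 3 h, with line differences of -0.53 ± 0.070 at 3 h (adjusted p = 5.04e-06) and -0.66 ± 0.070 at 6 h (adjusted p = 3.54e-08). ZFP36L1 had a line difference of -0.35 ± 0.065 at 3 h (adjusted p = 0.000563), when its DOHH2 response was -0.072.

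**Figure D4:**
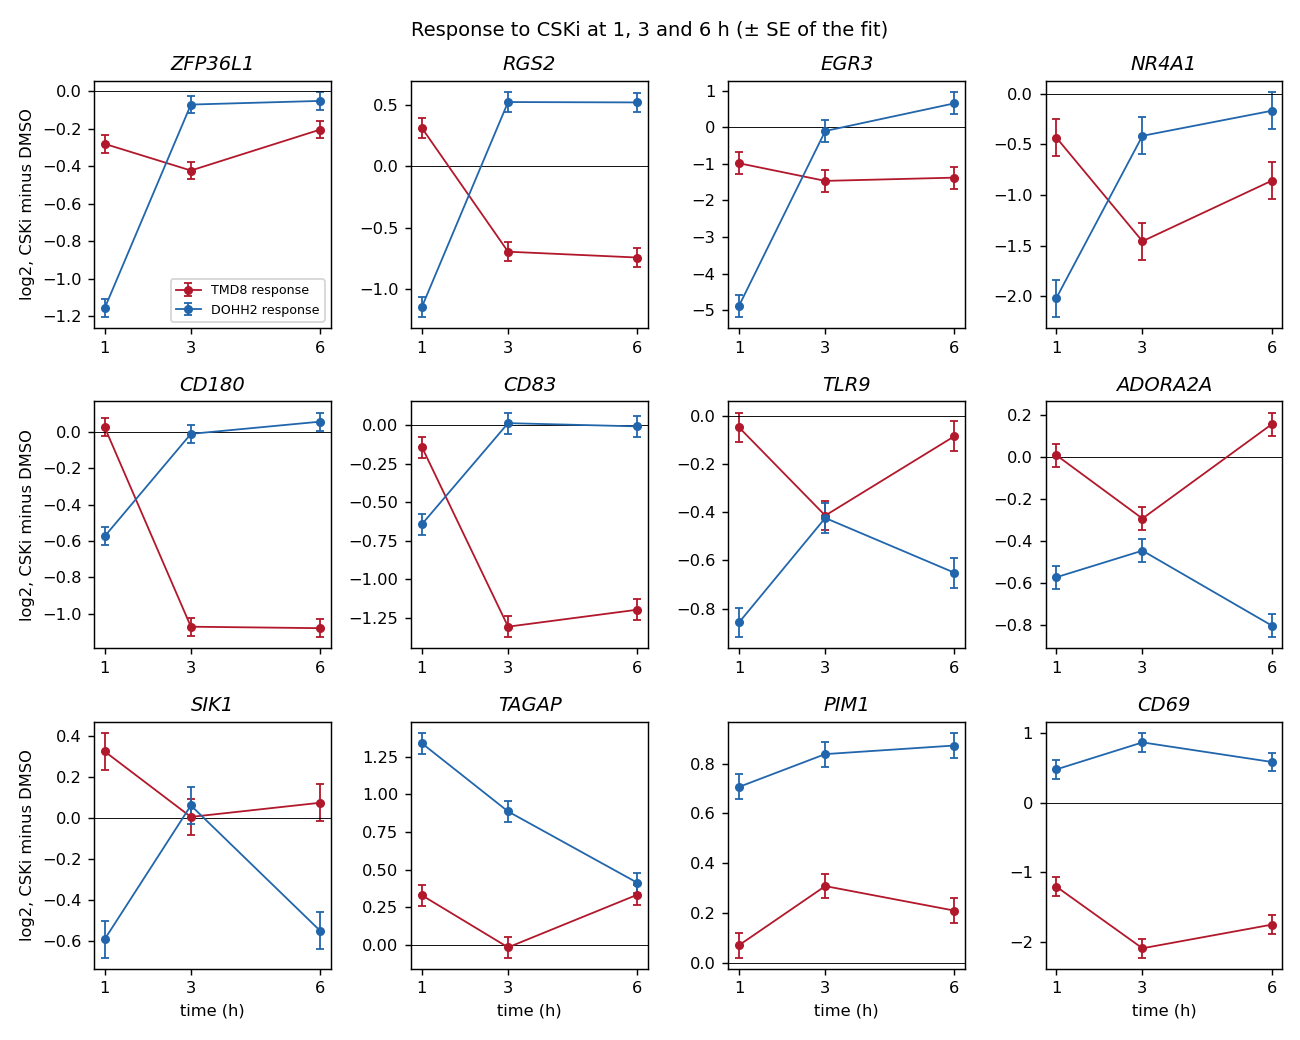
Response to CSKi (log2, CSKi minus DMSO, with standard error) at 1, 3 and 6 h in TMD8 and DOHH2 for selected genes. RGS2 and EGR3 lie lower in DOHH2 than in TMD8 at 1 h and lower in TMD8 than in DOHH2 at 3 h, while CD69 lies below 0 in TMD8 and above 0 in DOHH2 at each time.

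The vehicle levels of several of these genes also differed between the times, given here without a test. EGR3 with DMSO averaged 8.02, 7.21 and 6.54 at 1, 3 and 6 h in TMD8, and 8.86, 5.15 and 2.68 in DOHH2. EGR1 with DMSO averaged 9.22, 7.71 and 7.75 in TMD8 and 8.38, 5.01 and 3.08 in DOHH2. NR4A1 with DMSO averaged 7.80, 6.57 and 6.18 in TMD8 and 10.78, 9.13 and 8.86 in DOHH2. For these 3 genes the vehicle was highest at 1 h in both lines. All 3 fell with CSKi in DOHH2 at 1 h, and NR4A1 was lower there at 3 h too, 8.71 with CSKi against 9.13 with DMSO. How far the vehicle level sets the line difference was not tested. ZFP36L1 with DMSO averaged 10.81, 11.04 and 11.13 in TMD8 and 11.73, 11.40 and 11.03 in DOHH2.

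**Figure D5:**
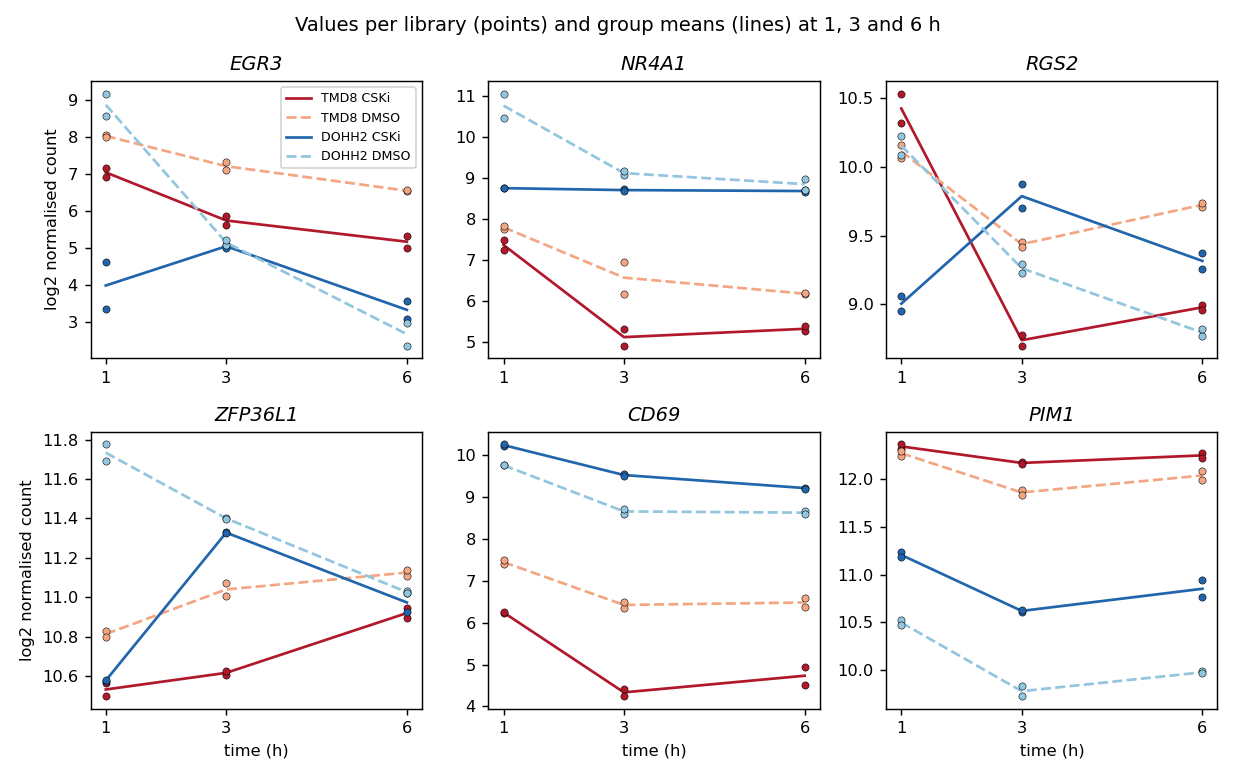
Log2 normalised counts with CSKi and with DMSO at 1, 3 and 6 h in TMD8 and DOHH2, 1 point per library and lines through the group means. In DOHH2 the vehicle level of EGR3 is highest at 1 h and lies close to the CSKi level at 3 h.

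A few listed genes were outside the level rule because the mean of 1 line was under 5, and are given without a test, chosen after their values were seen. TNF had 7.51 and 7.61 with CSKi against 9.41 and 9.49 with DMSO in TMD8, and in DOHH2 no library was above 0.35. The chemokine CCL3 had 4.45 and 4.82 with CSKi against 6.48 and 6.83 with DMSO in TMD8 and 3.15 and 3.75 with CSKi against 5.98 and 6.38 with DMSO in DOHH2, lower with CSKi in both lines. NR4A3, a relative of NR4A1, had 8.44 and 8.25 with CSKi against 8.499 and 8.48 with DMSO in TMD8 and 3.15 and 4.17 with CSKi against 5.86 and 6.62 with DMSO in DOHH2. In NR4A3 the CSKi libraries lay clearly below the DMSO libraries in DOHH2, and its DOHH2 mean of 4.95 just missed the rule.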

How the data were processed

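The deposited table holds scores that are log2 normalised counts, with 0 where no read was counted, for 25066 features in 32 libraries, and a first row of total mapped reads that was dropped. Per the submitters' processing notes, hg19 was the build and HTSeq was used, while for the aligner, versions, strand setting and scaling method the sources used here give nothing. Without a known strand setting, reads of overlapping or antisense genes cannot be told apart. The low values step by what 1 read is worth in a library, and reads recovered from these steps were whole, to a tolerance of 0.1, for 97.9 to 100% of values below 300 reads. Per the labels, libraries were stranded mRNA read as pairs of 75 bases. Column names were matched to titles ignoring case.

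Log2 values of 24 libraries (1, 3 and 6 h) were modelled in R 4.3.3 with limma 3.58.1 as 12 group means, with 12 residual degrees of freedom and eBayes(trend=TRUE). Two-sided p-values were adjusted by Benjamini-Hochberg over 10721 genes, and genes under 0.05 were called. Intervals are 95% and cover the spread between libraries. Lists are described by counts and medians, and 10360 tested features matched a Gene ID, 1674 of them renamed since. Motifs were sought in RefSeq promoters of GRCh38.p14, matched by Gene ID with a single promoter kept per ID, and no hg19 coordinate was used. The text names up to 10 called genes in each direction with the largest line difference, up to 2 of each list with the smallest p, up to 5 in each direction with the largest called response of each line, and CSK and LYN, and it lists the other called genes. Members, lists and tests were chosen with earlier results of these data known. Alternatives were other level rules, scalings, variance models, library sets, a replicate block, a pseudocount, voom on recovered reads, and leaving out each library. Python 3.11.15, pandas 2.3.3 and matplotlib 3.10.9 made tables and figures.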

Additional observations from a re-analysis of the deposited data

Results flagged for a closer look

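The responses of the lines at 1 h differed by the test of the difference itself in 55 genes, whose values below are line differences (TMD8 response minus DOHH2 response, log2). The called members of the immediate early transcription factor list were EGR3 3.89, NR4A1 1.58, IER5 0.43 and KLF10 0.87. Those of the AU-rich mRNA decay list were ZFP36 0.61, ZFP36L1 0.88 and ZC3H12A 0.80. Those of the NF-kB target and feedback list were NFKBIE 0.41, NFKBIZ -0.40, NFKB2 0.42, CD83 0.50 and BCL2A1 0.67. Those of the FOXO target list were S1PR1 -0.59, TXNIP -0.47 and GADD45A -0.61. Those of the B cell migration list were CXCR4 -0.34, CXCR5 0.54, S1PR1 -0.59 and RGS2 1.46. Those of the p53 target list were CDKN1A 0.79 and PLK3 0.55. A single member was called on the Src family kinase and regulator list (PTPN6 0.43), the B cell activation list (CD69 -1.68) and the BCL2 family list (BCL2A1 0.67). Called genes on no list with the higher response in TMD8 were TLR9 0.81, CD180 0.60, MPEG1 0.44, ADORA2A 0.58, SIK1 0.92, ZNF296 0.71, CXorf21 0.71, RUNDC1 0.62, SERTAD3 0.81, ID3 0.78, KIAA1949 0.32 and KBTBD8 0.72. Also higher in TMD8, on no list, were ZNF574 0.47, CCDC74A 0.92, BAG5 0.39, PPP1R15A 0.36, PLEKHO2 0.46, BMS1P5 1.67, MIDN 0.30, STAMBPL1 0.35, KIAA1539 0.62, PRAGMIN 0.37, TRAF4 0.26 and HYAL2 0.50. Called genes on no list with the lower response in TMD8 were TAGAP -1.01, PIM1 -0.64, TIFA -0.72, C10orf10 -1.09, SYNPO2 -0.94, MAB21L1 -0.35, SLC41A1 -0.21, C12orf49 -0.32 and LOC100287520 -0.47. CCDC74A and BMS1P5 rest on few reads and have near-identical copies. KIAA1949, CXorf21, C10orf10, KIAA1539, PRAGMIN and C12orf49 are the names in the deposited table for PPP1R18, TASL, DEPP1, ATOSB, PRAG1 and SPRING1.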

How the results depend on the processing

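The counts of called genes were 55 for the line difference at 1 h, 12 for TMD8, 257 for DOHH2, and 742 and 857 for the line differences at 3 and 6 h. With all 32 libraries in the fit they were 16, 4, 81, 162 and 271. Without the trend in the variance model DOHH2 had 145. TMD8 had 7 with the 8 libraries at 1 h alone and 6 with voom on recovered reads, while the line difference had 52 and 48. With a replicate block DOHH2 had 456, TMD8 9, and the line difference 82 at 1 h, 969 at 3 h and 1025 at 6 h. Across the tested genes, deviations of CSKi and DMSO libraries with the same replicate number correlated at 0.0234 to 0.0971. Noise in each library also lowers such values, so they cannot decide whether these libraries shared a culture or batch. The block called the line differences of EGR1 and DUSP5 and ended that of HYAL2, and it ended the TMD8 calls of JUNB and TAGAP and the DOHH2 call of CD69. Under the remaining alternatives (2 other level rules, the 12000 features with the highest mean, quantile or median of ratios scaling, a robust variance model and a pseudocount of 16) every count was within 1.5 times its value above.

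Without 1 library at a time, where the lone library left in a group was assumed to vary like the other groups, the line difference at 1 h had 35 to 56 calls, TMD8 7 to 35, DOHH2 103 to 281, and the line difference 440 to 672 at 3 h and 621 to 771 at 6 h. The line difference at 1 h had 35 without DOHH2 DMSO replicate 2. TMD8 had 35 without TMD8 CSKi replicate 2 and 7 without either DOHH2 DMSO library. DOHH2 had 103 without DOHH2 DMSO replicate 2, 156 without DOHH2 DMSO replicate 1 and 165 without DOHH2 CSKi replicate 1. At 3 h the count was 440 without DOHH2 DMSO replicate 1 and 459 without TMD8 CSKi replicate 1. The cause was not tested. None of the 55 called line differences changed sign under any alternative run, and 14 kept their call under every one. LYN, not called, ranged over -0.034 to 0.11 in its line difference, below 0 without DOHH2 CSKi replicate 1. Genes near the level rule rest on 14.2 to 26.4 reads per library, so small line differences in them are not detectable at this depth.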
